A study of Mus musculus with 6 samples.

Results

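The 9 genes described here encode the chains of the main leukocyte integrins (Itgal, Itgb2, Itga4, Itga6, Itgb1 and Itgb7), their ligands on other cells (Icam1 and Icam2) and the selectin ligand PSGL-1 (Selplg), 9 of 19938 genes measured. They are a set by function, and each was read from its probe set with a single gene symbol and the highest mean over the arrays. Every one of the 9 had just 1 probe set on the array, and no filter on low values was applied, so all 9 were tested. The cells were BCR-ABL1-transformed pre-B cells of the C57Bl/6 strain, a model of BCR-ABL1-driven acute lymphoblastic leukaemia, with the genotype Bcor fl/Y, meaning that the only X-linked Bcor copy is flanked by loxP sites. One group of 3 arrays came from cells transduced with PMIP-CRE-ERT2, a tamoxifen-dependent Cre recombinase, and the other group of 3 from cells transduced with PMIP-ERT2, which lacks Cre. Both groups had 4-hydroxytamoxifen at 0.5 micromolar for 2 days and puromycin selection, so they share the drug, the selection, the floxed allele and BCR-ABL1. Loss of Bcor and any other effect of active Cre cannot be told apart in this design. The labels name neither the cultures nor the animals behind the arrays, so p-values cover only the spread among these samples, and that spread may be technical.

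Integrins are pairs of an alpha and a beta chain that tie a cell to its neighbours or to matrix. The alpha chain Itgal pairs with the beta chain Itgb2 to form LFA-1, whose ligands are ICAM-1 and ICAM-2, while Itga4 pairs with Itgb1 to form VLA-4 or with Itgb7 to bind the gut addressin MAdCAM-1, and Itga6 with Itgb1 binds laminin. PSGL-1 is the ligand on leukocytes for the selectins, which slow rolling cells on vessel walls. In the bone marrow, pre-B cells use VLA-4 to hold on to stromal cells, and leukaemic B-cell precursors use several of these integrins for contact with their niche.

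The targeted gene checks the labels. Bcor, a corepressor of BCL6 and subunit of a variant polycomb complex, read 10.07, 10.11 and 10.17 on the log2 scale in ERT2 and 9.08, 9.22 and 9.18 in Cre-ERT2, lower in all 3. The array medians over all probe sets lay between 8.61 and 8.68. Of all genes, limma called 7.03% at an adjusted p under 0.05, 4.05% as higher and 2.98% as lower in Cre-ERT2, that is 808 against 594. After cyclic loess between arrays the split was 962 against 455. The total of 1402 dropped to 743 when Cre-ERT2 replicate 2 was removed, to 770 for ERT2 replicate 1, to 804 for Cre-ERT2 replicate 1 and to 934 for ERT2 replicate 2. Among the 8 pre-B markers analysed here (Cd79a, Cd79b, Vpreb1, Igll1, Pax5, Ebf1, Blnk and Cd22) the list's mean log2 value per array was 12.72 to 12.76 in ERT2 and 12.79 to 12.81 in Cre-ERT2, and the lowest gene mean was 11.22. Lists of markers of T and NK, myeloid, stromal, and endothelial and platelet cells had means per array between 7.74 and 8.26, though levels of different probe sets also depend on their probes and no detection limit was known.

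Of the 9 genes, 3 rose with Cre-ERT2 and 0 fell: the LFA-1 alpha chain Itgal 1.56-fold, the LFA-1 ligand Icam1 1.29-fold and the laminin receptor chain Itga6 1.14-fold. The remaining 6, which include all 3 beta chains, Itga4, Icam2 and Selplg, did not pass. Over all genes 7.03% were called, 4.05% as higher and 2.98% as lower. The median log2 fold change of the 9 genes was 0.10, beside -0.04 over all genes. The median of the 9 was 0.05 without ERT2 replicate 2 and with array weights. The groups' arrays did not overlap for 3 of the 9, all higher in Cre-ERT2, where 29.9% of all genes did not overlap, 9.56% with Cre-ERT2 higher and 20.3% with it lower. In bulk RNA, more cells that express a gene and more RNA per cell cannot be told apart.

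**Figure D1:**
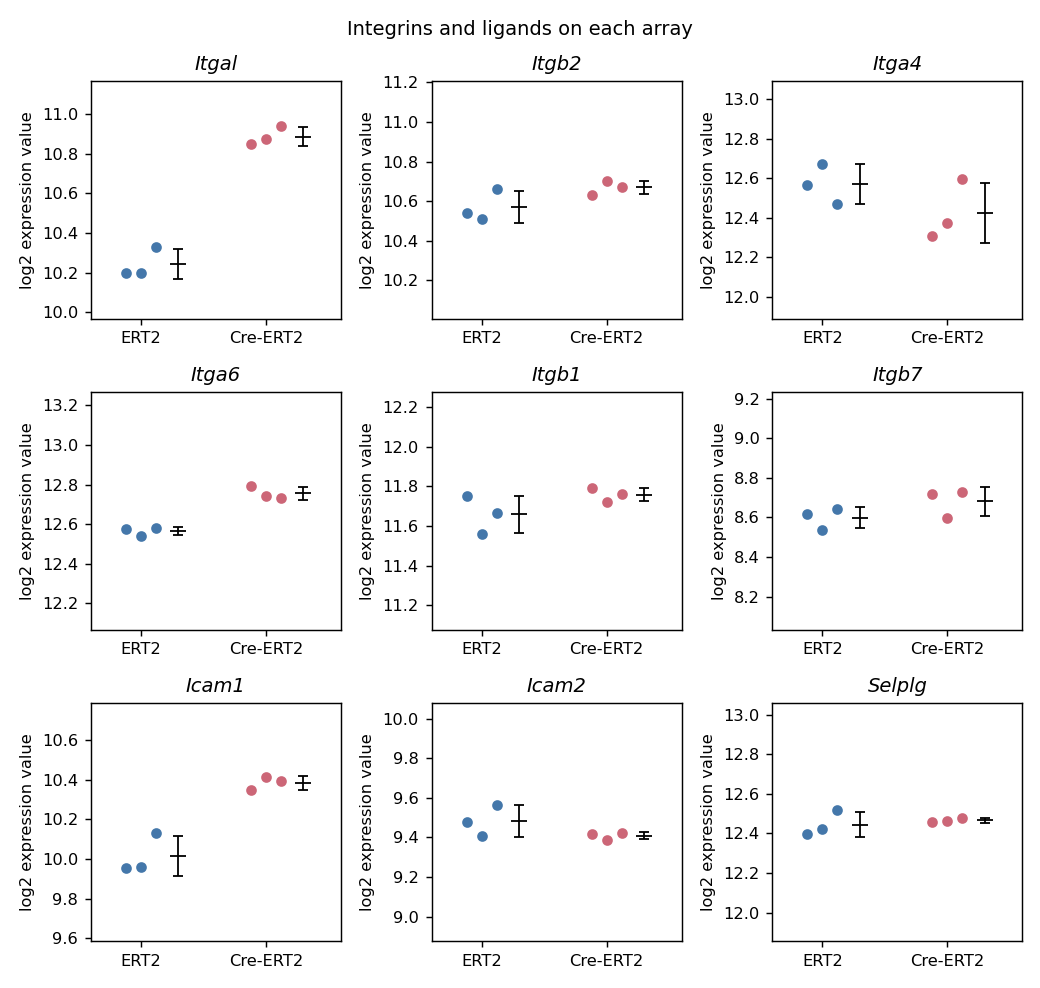
Log2 expression value (vertical axis, each panel spanning 1.2 log2 units) of the 9 genes on the 3 ERT2 arrays (blue) and the 3 Cre-ERT2 arrays (red), drawn from replicate 1 at left to replicate 3 at right, with the mean and SD beside each group. Itgal, Icam1 and Itga6 have no overlap between the groups, while the other 6 genes overlap.

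Itgal, which makes the alpha chain that gives LFA-1 its ligand-binding domain, changed most. Its log2 level was 10.20, 10.20 and 10.33 in ERT2 and 10.85, 10.87 and 10.94 in Cre-ERT2. Every Cre-ERT2 array lay above every ERT2 array, and the gap between the nearest arrays of the groups was 0.517, wider than the range within ERT2 (0.133) or within Cre-ERT2 (0.0915). Mean levels were 10.24 ± 0.0761 in ERT2 and 10.89 ± 0.0472 in Cre-ERT2 (SD, n = 3 each). The difference, 0.64 on the log2 scale with SE 0.0495, passed the test (limma adjusted p = 0.000154). By size of change Itgal stood at percentile 99.5 of all genes.

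Itgb2 encodes the beta chain that LFA-1 shares with the myeloid integrins Mac-1 and p150,95. It read 10.54, 10.51 and 10.66 in ERT2 and 10.63, 10.70 and 10.67 in Cre-ERT2, so the groups overlapped through ERT2 replicate 3. The log2 fold change was 0.10 with a 95% interval of -0.01 to 0.21 (limma adjusted p = 0.276), an interval that does not reach the lower bound for Itgal, 0.53. Within each array, Itgal minus Itgb2 was -0.34, -0.32 and -0.33 on the log2 scale in ERT2 and 0.21, 0.17 and 0.27 in Cre-ERT2. This difference between the LFA-1 chains shifted by 0.55 between the group means, with SDs of 0.0142 and 0.0484, and the groups did not overlap. Itgal alone did not overlap either, as 29.9% of all genes did not, and no share over other gene pairs was computed. The exact two-sided permutation test gave p = 0.10, the smallest that 3 against 3 arrays allow, and 0.175 adjusted over the 7 pairs compared.

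Icam1 encodes ICAM-1, an immunoglobulin-family adhesion molecule that inflammatory signals induce and that LFA-1 and Mac-1 bind. RefSeq start regions were matched for 4 of the 9 genes (Icam1, Itga4, Itgb1 and Itgb7), and that of Icam1 is shown because its expression rose. The 250 bases before the Icam1 start, from RefSeq on GRCm38.p6 at chr9:21015690-21015939, plus strand, are printed 5′ to 3′ with motif matches in capitals:
Icam1: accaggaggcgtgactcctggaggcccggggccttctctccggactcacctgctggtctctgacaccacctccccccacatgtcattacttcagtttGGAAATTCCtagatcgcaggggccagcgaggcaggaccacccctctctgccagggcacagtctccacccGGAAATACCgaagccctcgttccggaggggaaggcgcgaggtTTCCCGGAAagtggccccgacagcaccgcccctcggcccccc
The motifs were searched on both strands in windows that run from 250 bases before to 50 after a start: GAGGAA (as PU.1-type ETS factors prefer), GGNNTTTCC (NF-kB-type) and TTCNNNGAA (the spaced palindrome of STAT and BCL6-type sites). The first pair of capital runs in Icam1, GGAAATTCC and GGAAATACC, match the NF-kB-type letters on the minus strand and begin 153 and 84 bases before the start. The last run, TTCCCGGAA, matches the STAT and BCL6-type letters, begins 42 bases before the start and overlaps no other match. The NF-kB-type letters occur in 5.82% and the STAT and BCL6-type letters in 8.30% of 32851 such windows, and GAGGAA in 28.3%. Among the 3 other genes, whose expression did not pass the test, Itgb1 also holds an NF-kB-type match, which begins 164 bases before its start (chr8:128685476-128685512, plus strand):
Itgb1: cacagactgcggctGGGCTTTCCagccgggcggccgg
Itgb1 holds GAGGAA 9 bases before its start as well, Itgb7 holds GAGGAA on the minus strand 3 bases into the transcript, and no match was found in the Itga4 window. A match describes letters only, and these arrays measured no binding.

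The Icam1 log2 level was 9.96, 9.96 and 10.13 in ERT2 and 10.35, 10.42 and 10.39 in Cre-ERT2. ERT2 replicate 3 was the highest control, as it was for Itgal, and still lay 0.214 below the lowest Cre-ERT2 array. Mean levels were 10.02 ± 0.101 in ERT2 and 10.39 ± 0.0354 in Cre-ERT2 (SD, n = 3 each). The difference, 0.37 on the log2 scale with SE 0.0547, passed the test (limma adjusted p = 0.00479).

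Icam2 encodes ICAM-2, the more constant LFA-1 ligand of lymphocytes and endothelium. It read 9.48, 9.40 and 9.57 in ERT2 and 9.42, 9.39 and 9.42 in Cre-ERT2, with overlap between the groups. Its log2 fold change was -0.07 (95% interval -0.18 to 0.03, limma adjusted p = 0.382), and ran from -0.11 without ERT2 replicate 2 to -0.03 without ERT2 replicate 3. Icam1 minus Icam2 within an array was 0.48, 0.55 and 0.57 in ERT2 and 0.93, 1.03 and 0.97 in Cre-ERT2, a shift of 0.44 with no overlap (exact permutation p = 0.10, two-sided, and 0.175 adjusted over the 7 pairs). Icam1 has its relatives Icam4 and Icam5 beside it in the GRCm38.p6 gene table. Icam4, the red cell ICAM, was at 0.02 (limma adjusted p = 0.836), and Icam5, an ICAM of neurons, was at -0.12 (limma adjusted p = 0.177).

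**Figure D2:**
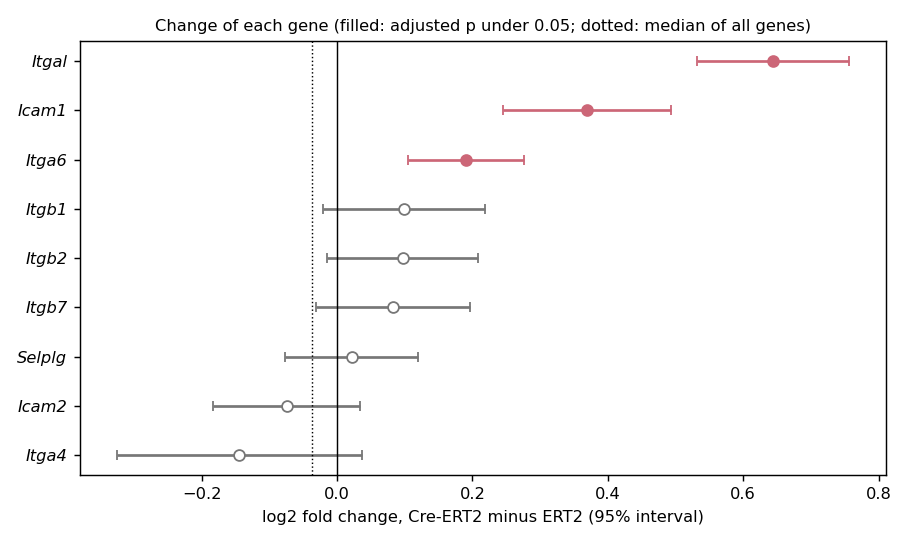
Log2 fold change of each of the 9 genes, Cre-ERT2 minus ERT2 (horizontal axis), with the 95% interval of the limma fit. The filled points are Itgal (0.64), Icam1 (0.37) and Itga6 (0.19), called at an adjusted p under 0.05, and the dotted line is the median of all genes (-0.04).

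Itga6 encodes the alpha chain of the laminin receptors and is a marker of stem and progenitor cells in several tissues. Its log2 level was 12.57, 12.54 and 12.58 in ERT2 and 12.79, 12.74 and 12.73 in Cre-ERT2, close within each group and without overlap. Mean levels were 12.57 ± 0.0202 in ERT2 and 12.76 ± 0.0313 in Cre-ERT2 (SD, n = 3 each). The difference, 0.19 on the log2 scale with SE 0.0376, passed the test (limma adjusted p = 0.0187). Its call ended without ERT2 replicate 1 (limma adjusted p = 0.0723), ERT2 replicate 2 (0.0650), Cre-ERT2 replicate 1 (0.0802) or Cre-ERT2 replicate 2 (0.0712), and 2 of the 9 genes were then called. Over all 15 other settings its limma adjusted p lay between 0.00154 and 0.0802.

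Itgb1 encodes the beta chain that Itga6 and Itga4 share with many matrix receptors. Its values were 11.75, 11.56 and 11.66 in ERT2 and 11.79, 11.72 and 11.76 in Cre-ERT2, where ERT2 replicate 1 overlapped the other group. The log2 fold change was 0.10 (95% interval -0.02 to 0.22, limma adjusted p = 0.298), and it was 0.05 without ERT2 replicate 2 or with array weights. Itga6 minus Itgb1 moved by 0.09 between the groups, which overlapped (exact permutation p = 0.20, two-sided, and 0.233 adjusted over the 7 pairs).

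Itga4 encodes the alpha chain of VLA-4, the receptor for VCAM-1 and fibronectin. It had the widest spread of the 9 genes within Cre-ERT2 (SD 0.151), at 12.57, 12.67 and 12.47 in ERT2 and 12.31, 12.37 and 12.60 in Cre-ERT2. Cre-ERT2 replicate 3 lay among the controls and the other Cre-ERT2 arrays lay below all 3. The log2 fold change was -0.14 with a 95% interval of -0.33 to 0.04 (SE 0.0794, limma adjusted p = 0.316). With 1 array left out it ran from -0.09, without Cre-ERT2 replicate 1 (limma adjusted p = 0.617) or without ERT2 replicate 2 (0.542), to -0.23 without Cre-ERT2 replicate 3 (0.0738). Its lowest limma adjusted p over the other settings was 0.0521, with array weights. Itgal minus Itga4, the alpha chains of LFA-1 and VLA-4, shifted by 0.79 between the group means, from -2.37, -2.48 and -2.14 in ERT2 to -1.46, -1.50 and -1.66 in Cre-ERT2. These arrays did not overlap either (exact permutation p = 0.10, two-sided, and 0.175 adjusted over the 7 pairs).

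Itgb7, the beta chain of the gut-homing integrin, read 8.62, 8.54 and 8.64 in ERT2 and 8.72, 8.60 and 8.73 in Cre-ERT2, with overlap through Cre-ERT2 replicate 2. Its log2 fold change was 0.08 (95% interval -0.03 to 0.20, limma adjusted p = 0.360), and with 1 array left out it ran from 0.05 (without ERT2 replicate 2) to 0.12 (without Cre-ERT2 replicate 2). The VLA-4 pair Itga4 minus Itgb1 moved by -0.24 and Itga4 minus Itgb7 by -0.23, both with overlap between the groups (exact permutation p = 0.30 and p = 0.20, two-sided). Adjusted over the 7 pairs these were 0.300 and 0.233.

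Selplg, the selectin ligand, had the smallest change of the 9 genes. It read 12.40, 12.42 and 12.52 in ERT2 and 12.46, 12.46 and 12.48 in Cre-ERT2, where all 3 Cre-ERT2 arrays lay inside the control range. The log2 fold change was 0.02, and its 95% interval of -0.08 to 0.12 (limma adjusted p = 0.796) spans small changes in either direction.

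**Figure D3:**
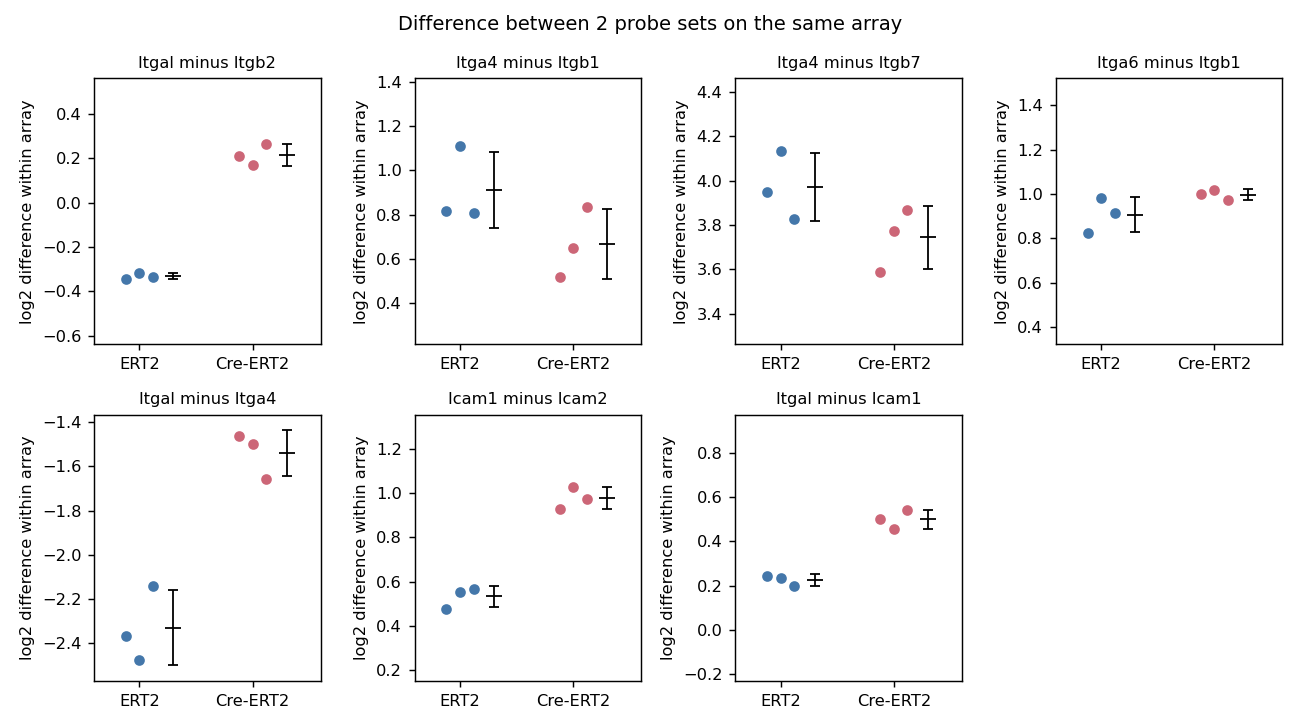
Log2 difference between the probe sets of 2 genes on the same array (vertical axis, each panel spanning 1.2 log2 units) for the 7 pairs, with ERT2 arrays in blue, Cre-ERT2 arrays in red and the mean and SD beside each group. The 4 pairs with Itgal or with Icam1 do not overlap between the groups, and the 3 pairs of Itga4 or Itga6 with a beta chain do.

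Each pair without overlap holds Itgal or Icam1, whose own groups were apart. The last pair set the LFA-1 chain against its ligand. Itgal minus Icam1 rose from 0.24, 0.24 and 0.20 in ERT2 to 0.50, 0.46 and 0.54 in Cre-ERT2, a shift of 0.27 without overlap (exact permutation p = 0.10, two-sided, and 0.175 adjusted over the 7 pairs). Of the 9 genes, 7 had their highest control value in ERT2 replicate 3, compared with 48.0% of all genes.

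Other members of the same families were counted in the same way. Over all genes 7.03% passed the adjusted test, 4.05% higher and 2.98% lower, while 23.0% had an unadjusted p under 0.05, 8.0% (1596 genes) higher and 15% (2994) lower. Of 15 other integrin alpha chains 1 rose and 0 fell, a share near that of all genes, with a median log2 fold change of -0.04. It was Itga9, an alpha chain that pairs with Itgb1 and binds tenascin and VCAM-1, at 0.36 (8.37 ± 0.0520 in ERT2 and 8.74 ± 0.0925 in Cre-ERT2, SD, 3 arrays each, limma adjusted p = 0.00514). Of 5 other beta chains limma called 0, although 3 had an unadjusted p under 0.05, 2 higher and 1 lower. The beta chains Itgb5 and Itgb3 of receptors for vitronectin were at 0.13 (limma adjusted p = 0.0823) and 0.11 (limma adjusted p = 0.181). Limma also called 0 of 9 other cell-surface ligands of leukocyte integrins, 3 of which had an unadjusted p under 0.05, all lower, the direction of most such genes on the array. The junctional adhesion molecule Jam3 was at -0.14 (limma adjusted p = 0.112) and the surface glycoprotein Thy1 at -0.12 (limma adjusted p = 0.148). Of 17 matrix ligands limma called 0 (1 with an unadjusted p under 0.05), with the laminin chain Lama1 at -0.11 and the collagen chain Col4a1 at -0.09.

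Downstream of integrins, 4 of 36 genes for activation and adaptors rose and 0 fell, with a median of -0.02, where 4.05% of all genes rose and 2.98% fell. At an unadjusted p under 0.05, 5 of the 36 were higher and 4 lower, beside 8.0% and 15% of all genes. The groups were apart for 7 with Cre-ERT2 higher and 7 with it lower, beside 9.56% and 20.3% of all genes. The largest rise was in Actn1, an alpha-actinin that ties integrin tails to actin, from 9.11, 9.23 and 9.19 in ERT2 to 9.97, 10.07 and 10.05 in Cre-ERT2. The groups did not overlap, at a change of 0.85 on the log2 scale, with SE 0.0470 (limma adjusted p = 3.02e-05). The focal adhesion adaptor Pxn (paxillin) rose by 0.35 (SE 0.0449, limma adjusted p = 0.00239) and Vcl (vinculin), which binds talin and actin, by 0.25 (SE 0.0402, limma adjusted p = 0.00668). Cd47, a partner of integrins and the signal that restrains phagocytes, rose by 0.22 (limma adjusted p = 0.0106), a call that ended without ERT2 replicate 1 or Cre-ERT2 replicate 1 (limma adjusted p up to 0.0521). The talin gene Tln1 was at 0.03 and the kindlin gene Fermt3 at 0.04, both activators that bind beta chain tails and both named after their values were seen.

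**Figure D4:**
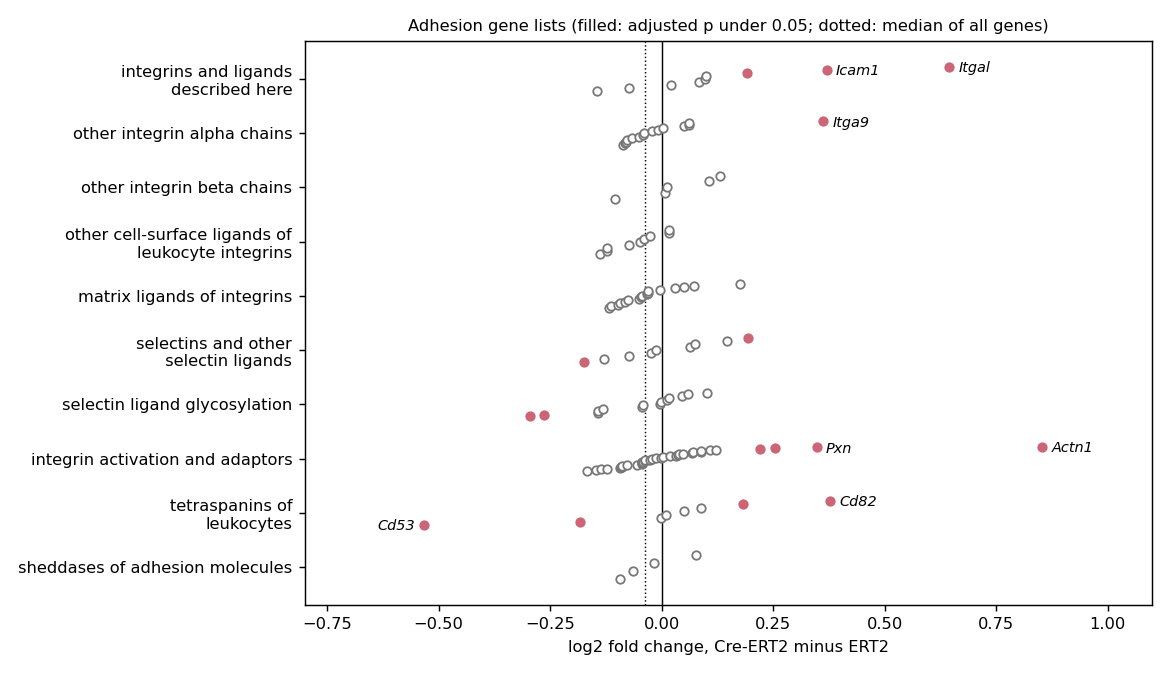
Log2 fold change, Cre-ERT2 minus ERT2 (horizontal axis), of every gene in the 9 genes described here and in 9 further adhesion lists, 1 point a gene, filled where the limma adjusted p was under 0.05, with the dotted line at the median of all genes. Actn1 (0.85) and Itgal (0.64) lie farthest to the right and Cd53 (-0.53) farthest to the left.

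Around selectin binding, of 14 enzymes and transporters that build selectin ligands 0 rose and 2 fell, with a median of -0.02, beside 4.05% and 2.98% of all genes. St3gal6, a sialyltransferase that caps the selectin-binding sugar, fell by 0.26 on the log2 scale, from 12.73, 12.70 and 12.62 in ERT2 to 12.44, 12.41 and 12.41 in Cre-ERT2 (SE 0.0420, limma adjusted p = 0.00682). Gcnt1, which makes the core-2 branch that carries this sugar on PSGL-1, fell by 0.30, from 8.71, 8.85 and 8.70 to 8.47, 8.42 and 8.48 (SE 0.0494, limma adjusted p = 0.00855). In both genes the groups were apart, while Selplg itself was at 0.02. Of the 14, 5 had groups apart with Cre-ERT2 lower and 1 with it higher, beside 20.3% and 9.56% of all genes. At an unadjusted p under 0.05, 5 of the 14 were lower and 1 higher, beside 15% and 8.0% of all genes. Of 9 selectins and other selectin ligands, the glycoprotein Cd24a rose by 0.19 (limma adjusted p = 0.0453) and the addressin Glycam1 fell by 0.17 (limma adjusted p = 0.0472). Leaving out any single array other than Cre-ERT2 replicate 3 removed the Cd24a call (limma adjusted p up to 0.171), and leaving out any other than ERT2 replicate 3 removed that of Glycam1 (up to 0.154). Glycam1 was not called after cyclic loess (limma adjusted p = 0.153), median centring (0.0627) or quantile normalization (0.0569), or with an intensity trend in the fit (0.063). Its mean level was 7.33 in ERT2 and 7.15 in Cre-ERT2, below the array medians over all probe sets (8.61 to 8.68).

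Tetraspanins, membrane proteins that organise integrins in patches, moved both ways: of 8, 2 rose and 2 fell, with a median of 0.03, beside the same 4.05% and 2.98%. Cd53, a tetraspanin of leukocytes, fell by 0.53 (13.53 ± 0.0227 in ERT2 and 13.00 ± 0.0645 in Cre-ERT2, SD, 3 arrays each, limma adjusted p = 0.000207), and Cd82 rose by 0.38 (limma adjusted p = 0.000789). Tspan32 rose by 0.18 and Cd37 fell by 0.18 (limma adjusted p = 0.0257 and 0.0492). The Tspan32 call ended without replicate 1 or 2 of either group (limma adjusted p up to 0.108) and after quantile normalization (0.0526), and Cd37 was not called when any array other than ERT2 replicate 2 was dropped (up to 0.161) or after quantile normalization (0.0767). Of 4 sheddases limma called 0, and 0 had an unadjusted p under 0.05, beside 23.0% of all genes. The groups were apart for 3 of the 4, 1 higher and 2 lower, beside 29.9% of all genes. Mmp9 was at -0.09 and Adam10 at 0.08.

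The genes next to the 9 in the gene table were read as well. Names such as those of clones, predicted genes, small RNAs and olfactory receptors were skipped. Of the 18 nearest remaining genes with a single-symbol probe set, 1 on each side of every gene, limma called 0, beside 7.03% of all genes. Of these 18, 2 had an unadjusted p under 0.05 and 5 had groups apart, beside 23.0% and 29.9% of all genes. The log2 fold changes of the 18 lay between -0.15 and 0.11. Beside Itgal, Sephs2 was at -0.09 and Zfp768 at 0.01, and on the side of Icam1 away from Icam4, Mrpl4 was at 0.02.

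By profile over the 6 arrays, with each gene centred on its ERT2 mean, the 3 genes closest to Itgal among 17042 were Pla2g2f, a secreted phospholipase (root mean square difference 0.0260 on the log2 scale), Tlr9, the receptor for unmethylated CpG DNA (0.0275), and Smad3, a transducer of TGF-beta signals (0.0322). Closest to Icam1 were Tirap, an adaptor of toll-like receptors (0.0211), Cnp, a phosphodiesterase best known from myelin (0.0233), and Napsa, an aspartic protease (0.0307). Their log2 fold changes were 0.66, 0.65 and 0.68 for the first 3 and 0.38, 0.39 and 0.34 for the others. The ranking itself selects fold changes near those of Itgal and Icam1, so this likeness is no separate result. Shared regulation was not tested.

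Itgal, Itgb2 and Icam1 are also expressed by other blood cells, whose markers were read beside them. The counts below stand beside 4.05% of all genes that rose and 2.98% that fell. Of 12 myeloid markers 2 rose (Lyz2 by 0.45 and Fcgr1 by 0.35) and 1 fell (Mrc1 by 0.54), and the list's mean log2 value per array was 8.12 to 8.14 in ERT2 and 8.11 to 8.15 in Cre-ERT2. Fcgr1 was not called when ERT2 replicate 2, ERT2 replicate 3, Cre-ERT2 replicate 1 or Cre-ERT2 replicate 2 was dropped (limma adjusted p up to 0.112). Of 10 T and NK markers Ncr1 fell by 0.23, a call lost without Cre-ERT2 replicate 1 (limma adjusted p = 0.0529). The Ncr1 mean level was 7.01 in ERT2 and 6.78 in Cre-ERT2, below the array medians over all probe sets (8.61 to 8.68). The mean of the T and NK list was 7.77 to 7.85 in ERT2 and 7.74 to 7.75 in Cre-ERT2. Of 10 stromal markers limma called 0 (4 with an unadjusted p under 0.05, all lower, where 15% of all genes were lower at that threshold), with means per array of 8.20 to 8.26 and 8.16 to 8.18. Of 9 endothelial and platelet markers Egfl7 rose by 0.32, with means of 7.92 to 7.93 and 7.92 to 7.96. Of the 8 pre-B markers Cd22 rose by 0.27, and 3 had an unadjusted p under 0.05, 2 higher and 1 lower. At that threshold 6 myeloid markers passed (2 higher, 4 lower) and 3 T and NK markers (all lower). Endothelial and platelet markers gave 4 (2 higher, 2 lower), beside 8.0% higher and 15% lower over all genes. Groups were apart for 5 pre-B, 8 myeloid, 3 T and NK, 4 stromal and 5 endothelial and platelet markers, beside 29.9% of all genes. No marker was at 0, since these arrays give every probe set a value, and the part of these cells in the changes of Itgal, Icam1 and Itga6 was not tested.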

How the data were processed

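The authors deposited log2 expression values per probe set for 6 arrays. The submitters' processing notes list RMA and Partek 6.5 without their roles, and the genome build was not given in the sources used here. Of 35556 probe sets, 21789 had 1 gene symbol in the platform annotation, which gave 19938 genes, each represented by its probe set of highest mean. Cre-ERT2 and ERT2 were compared by limma 3.58.1 under R 4.3.3, using lmFit and a trendless eBayes, with Benjamini-Hochberg adjustment over all genes and calls at an adjusted p under 0.05. No array pair was identical (0 pairs). The number of arrays limits the precision, with a median SE of 0.0477 for a log2 fold change. On simulated data for this comparison of 19938 genes, 50 genes were changed at each size. Of changes of 0.25, 0.5, 1 and 2 on the log2 scale, 44%, 92%, 100% and 98% were recovered, with 3 false calls. Fewer genes changed there than the 1402 called in the data. The adjustment depends on that number, so these shares may not carry over. Pairs were tested with scipy 1.17.1. Besides Bcor and the 9 genes, up to 4 called genes of largest change, or the 2 of smallest p, were named from each list. The genes, lists, pairs and motifs were chosen with earlier results of these data known. Plots used Python 3.11.15 and matplotlib 3.10.9.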

Additional observations from a re-analysis of the deposited data

How the results depend on the processing

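The 9 genes were recomputed under 15 other settings. Itgal and Icam1 kept their direction and their call in every one, at log2 fold changes of 0.62 to 0.69 and 0.34 to 0.43 and adjusted p of up to 0.00222 and 0.0276. The number of the 9 genes called was 2 to 3 when 1 array was left out and 3 at an adjusted p of 0.1. Selplg lay between -0.0025, without ERT2 replicate 1, and 0.0578, without ERT2 replicate 3. Itgb7 is among the dimmest 50% of genes and was not tested where those were dropped. All 28 values of the pairs under 4 settings kept their direction. Median centring and the mean of probe sets cannot change these within-array differences, so only quantile normalization and cyclic loess could have moved them. Over all genes, 1402 were called, 3339 with array weights (1315 higher and 2024 lower), and 743 to 1341 with 1 array left out. Deviations from the group means correlated at 0.05, -0.09 and -0.26 between arrays of the same replicate number. Of the 6 arrays, only ERT2 replicate 1 correlated best with its own number. ERT2 replicate 2 did so with Cre-ERT2 replicate 3 (0.31) and ERT2 replicate 3 with Cre-ERT2 replicate 1 (0.24). These values show no pairing by replicate number, but with 3 arrays per group they cannot exclude one. With the replicate number as a block, 805 genes and 2 of the 9 were called, and Itga6 stood at 0.19 (adjusted p = 0.0625). The calls of Cd24a, Glycam1, Cd47, Cd37 and Tspan32 also ended with this block (limma adjusted p of 0.0509 to 0.102). The array background and detection limits were not known, so a low level could not be told from background.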
